A study of Mus musculus with 57 samples.

Results

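The cyclin-dependent kinase (CDK) inhibitor and senescence loci are the genes Cdkn2a, Cdkn2b, Cdkn2c, Cdkn2d, Cdkn1a, Cdkn1b, Trp53 and Rb1. They were chosen by name, 8 of 26089 RefSeq genes, and together have 11 of 28828 transcription start sites (TSS) when starts of a gene closer than 1 kb are counted as 1. Every start was examined for the histone marks H3K4me3, H3K27ac and H3K27me3, within 1 kb on each side, and the neighbouring genes Cdkn2a and Cdkn2b were also followed along their whole domain. The data are 57 libraries of chromatin immunoprecipitation and sequencing, in which DNA bound to a modified histone is pulled down with an antibody and sequenced, from cortex (9 libraries per mark) and gastrocnemius muscle (10 libraries per mark) of 10 PSAPP mice aged 13 months. PSAPP mice carry transgenes for a mutant human presenilin 1 and for a chimeric mouse and human amyloid precursor protein with the Swedish mutation, and are used as a model of Alzheimer's disease. All animals of both groups carried these transgenes, were housed singly from the age of 6 months and were kept on a fixed ration of a modified AIN-93 diet, and animals without the transgenes were not analysed here. In 9 of the 10 animals both tissues were profiled. The labels give no sex for a library, so the sexes were pooled and the comparison made is that of gastrocnemius with cortex.

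H3K4me3 marks the starts of genes open to transcription, H3K27ac marks active starts and enhancers, and H3K27me3 is laid down by Polycomb complexes over silenced genes. CDK inhibitors hold cells in the G1 phase by blocking the kinases that phosphorylate the retinoblastoma protein. The Cdkn2a-Cdkn2b locus is a well-known Polycomb target whose repression is lost in many senescent cells, and its Ink4a product is widely used as a marker of senescence. Cdkn2a is read from separate starts, of which one gives the CDK inhibitor Ink4a and the other gives Arf, a stabiliser of p53.

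H3K4me3 peaks held 9.50 to 19 M reads per library in the cortex and 9.16 to 15.0 M in the gastrocnemius, H3K27ac peaks 3.94 to 21.2 M and 15.7 to 27.3 M, and H3K27me3 peaks 4.52 to 7.32 M and 2.99 to 18.2 M. The library of the fewest H3K27ac reads was that of cortex 9, and the library of the most H3K27me3 reads was that of gastrocnemius 5. Of 12 marker genes of cortical cells, 12 had an H3K4me3 peak in every cortex library and 5 in every gastrocnemius library. Snap25, Gad1, Gfap, Mog and Cx3cr1 had none in any gastrocnemius library. The level summed over the starts of these marker genes ran from 246 to 280 RPM in the cortex and from 59.9 to 89.9 RPM in the gastrocnemius. Here RPM is the reads at a start relative to all reads in the autosomal peaks of its library, after the scaling by TMM described below. Of 12 marker genes of muscle and the other cells of a muscle, 11 had a peak in every gastrocnemius library and 5 in every cortex library, at 197 to 288 RPM in the gastrocnemius and 77.1 to 97.5 RPM in the cortex. Ckm, Myh4, Tnnt3 and Pax7 had none in any cortex library, while the macrophage gene Adgre1 had none in any gastrocnemius library. Both tissues are mixtures of cells, so fewer cells carrying a mark and less of the mark per cell cannot be told apart in any value below. The deposited names of the libraries of the tissues also carry different processing tags, and a difference in processing between the tissues cannot be told apart from the tissue.

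The promoters of the Cdkn2a-Cdkn2b domain and of the separate Cdkn1a starts, on which most of the accounts below turn, are shown here as bases 250 before to 29 after the start, from RefSeq on GRCm38.p6, the assembly also called mm10. Of the 11 starts, 10 had a promoter entry, and Rb1 had none. Capitals mark the motifs that were searched for on both strands, namely CCAAT (in 36.1% of 32851 promoters of the same length), TATAAA (13.1%), GGGCGG (34.7%), CACGTG (6.79%) and the E2F-type letters TTTNNCGC (4.84%). The first 3 sequences are the starts of the Cdkn2a-Cdkn2b domain, at chr4:89294590-89294869 (Arf), chr4:89282163-89282442 (Ink4a) and chr4:89311003-89311282 (Cdkn2b), all on the minus strand. The other 2 are the starts of Cdkn1a, at chr17:29090729-29091008 and chr17:29093519-29093798, on the plus strand.
Cdkn2a Arf: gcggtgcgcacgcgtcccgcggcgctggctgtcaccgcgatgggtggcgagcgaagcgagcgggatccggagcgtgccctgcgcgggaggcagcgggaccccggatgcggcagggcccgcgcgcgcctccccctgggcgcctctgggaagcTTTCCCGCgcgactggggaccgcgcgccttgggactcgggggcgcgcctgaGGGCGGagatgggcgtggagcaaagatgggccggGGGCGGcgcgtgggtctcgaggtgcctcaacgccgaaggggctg
Cdkn2a Ink4a: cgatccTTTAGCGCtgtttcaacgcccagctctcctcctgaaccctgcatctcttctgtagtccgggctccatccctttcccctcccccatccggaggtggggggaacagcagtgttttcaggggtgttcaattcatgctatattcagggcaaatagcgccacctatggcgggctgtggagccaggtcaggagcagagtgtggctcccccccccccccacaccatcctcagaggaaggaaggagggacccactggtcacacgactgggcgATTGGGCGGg
Cdkn2b: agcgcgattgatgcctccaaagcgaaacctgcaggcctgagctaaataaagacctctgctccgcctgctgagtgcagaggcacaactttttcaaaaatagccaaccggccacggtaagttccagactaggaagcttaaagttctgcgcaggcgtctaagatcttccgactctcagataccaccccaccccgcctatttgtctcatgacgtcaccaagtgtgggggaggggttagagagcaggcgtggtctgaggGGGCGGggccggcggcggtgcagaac
Cdkn1a upstream: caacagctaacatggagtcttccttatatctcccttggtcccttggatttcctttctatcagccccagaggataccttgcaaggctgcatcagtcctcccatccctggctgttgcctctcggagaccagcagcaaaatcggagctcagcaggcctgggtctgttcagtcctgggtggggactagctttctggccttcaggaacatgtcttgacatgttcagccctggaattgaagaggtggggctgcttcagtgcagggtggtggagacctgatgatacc
Cdkn1a downstream: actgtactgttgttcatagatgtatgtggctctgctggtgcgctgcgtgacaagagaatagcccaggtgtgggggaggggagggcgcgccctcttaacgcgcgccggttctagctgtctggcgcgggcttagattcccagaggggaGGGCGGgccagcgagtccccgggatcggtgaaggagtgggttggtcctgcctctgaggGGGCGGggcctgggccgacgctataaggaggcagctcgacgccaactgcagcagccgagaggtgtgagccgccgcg
The Arf promoter held 43 CG dinucleotides, more than 98.3% of all promoters, against 10 at Ink4a (58.5%) and 16 at Cdkn2b (69.7%), where the median of all promoters was 6. The Arf and Ink4a windows each held TTTNNCGC and GGGCGG letters, and at Ink4a the GGGCGG letters overlap a CCAAT match on the other strand. The upstream Cdkn1a start held 2 CG dinucleotides, more than 15.9% of promoters, and none of the motifs, whereas the downstream start held 23 (81.6%) and GGGCGG at 2 places. Among the promoters not printed, the upstream Cdkn2c start held 32 CG dinucleotides, Cdkn1b 29, Cdkn2d 20, Trp53 10 and the downstream Cdkn2c start 6. These counts describe the letters of the window and are not evidence of binding.

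The Cdkn2b start, from which the CDK inhibitor Ink4b is transcribed, was the only one of the 11 at which the tissues did not overlap in any mark, and there they did not overlap in any of the 3 (of all starts tested, 16.5% by H3K4me3 reads, 11.7% by H3K27ac reads and 12.3% by H3K27me3 calls did not overlap). It carried more H3K4me3 and H3K27ac in the gastrocnemius, and an H3K27me3 peak more often in the cortex. In the text, reads of called peaks within 1 kb of a start are given as normalised RPM, that is, relative to the reads of the library in autosomal peaks after scaling by TMM, a method that sets the typical start equal between libraries. H3K4me3 at Cdkn2b (NM_007670.4, chr4 89311032, minus strand) lay between 16.0 and 24.9 RPM in the cortex (median 20.2) and between 34.5 and 59.7 RPM in the gastrocnemius (median 52.0). Every gastrocnemius library was above every cortex library. The means were 20.2 ± 2.83 (SD, n = 9) and 48.5 ± 9.77 (SD, n = 10), a log2 fold change of 1.26 ± 0.12 (SE; edgeR FDR = 1.96e-10). H3K27ac lay between 3.01 and 5.47 RPM in the cortex (median 4.50) and between 6.69 and 13.7 RPM in the gastrocnemius (median 11.01), again without overlap. Its means were 4.48 ± 0.804 (SD, n = 9) and 10.8 ± 2.23 (SD, n = 10), a log2 fold change of 1.25 ± 0.13 (SE; edgeR FDR = 1.76e-08). The lowest of these values, 3.01 RPM in cortex 9, rests on 16 reads, and without that library the log2 fold change was 1.204.

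H3K27me3 was called at Cdkn2b in 9 of 9 cortex libraries, at 7.27 to 11.6 RPM (median 10.3), and in 4 of 10 gastrocnemius libraries, at 6.66 RPM in gastrocnemius 1, 1.56 in gastrocnemius 2, 2.24 in gastrocnemius 5 and 7.13 in gastrocnemius 9. The highest gastrocnemius library, at 7.13 RPM, was therefore just below the lowest cortex library, at 7.27 RPM. The calls differed between the tissues (two-sided Fisher's exact test p = 0.0108, FDR = 0.0396), and 34.4% of all starts tested this way were called (15.1% of all starts tested with more calls in the cortex and 19.3% with more in the gastrocnemius). The FDR rose to 0.102, 0.101 and 0.101 without gastrocnemius 3, 6 or 10. With a window of 2.5 kb the difference in calls fell to 20 percentage points with an FDR of 0.633, and in gastrocnemius 3, 6, 8 and 10 the last peak on the genes ended between 1 and 2.5 kb before the start. By rank, the start moved from the 30.8th to the 83.9th percentile of starts with H3K4me3 reads between cortex and gastrocnemius, from the 22.5th to the 82.0th for H3K27ac, and from the 89.1st to the 27.6th for H3K27me3.

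**Figure D1:**
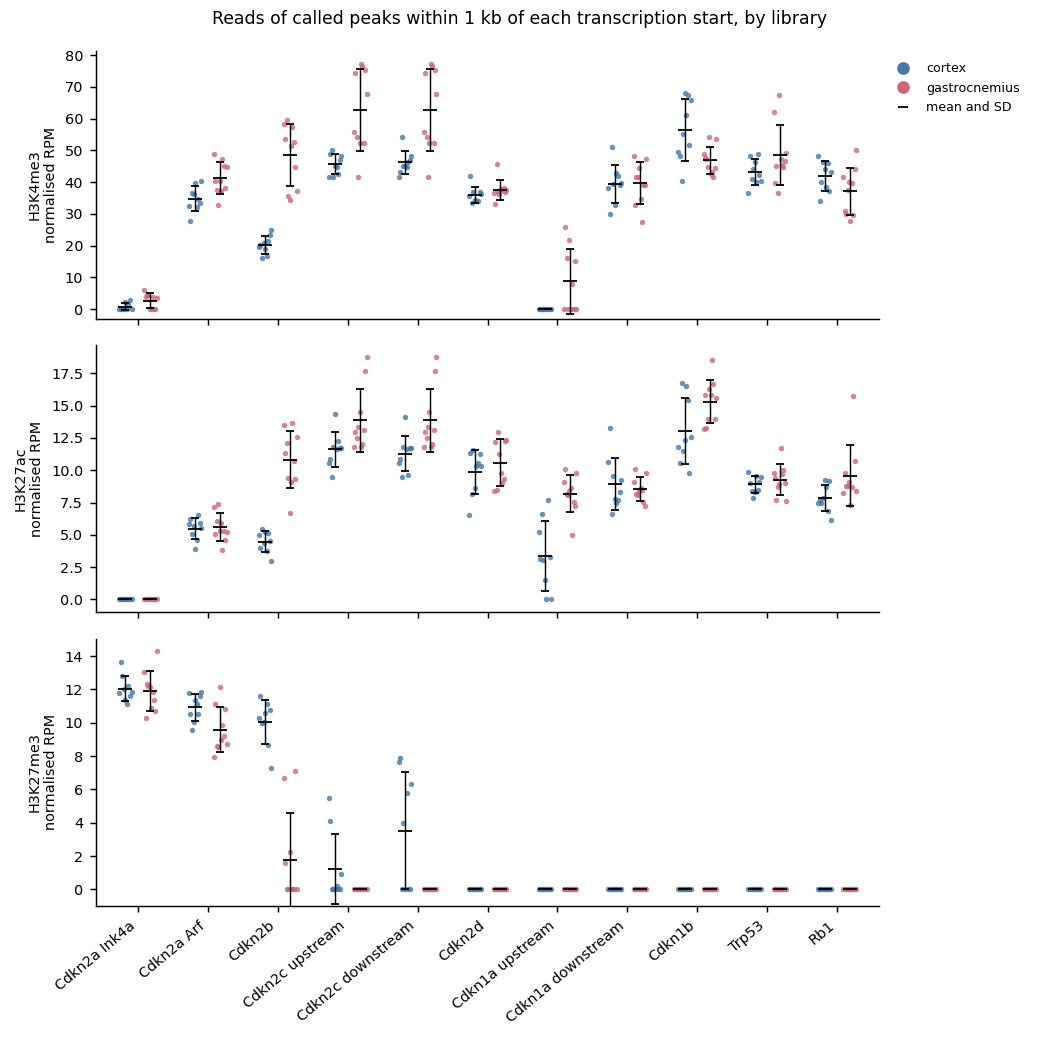
Reads of called peaks within 1 kb of each of the 11 starts in normalised RPM (vertical axes, 1 panel per mark, linear), for 9 cortex (blue) and 10 gastrocnemius (red) libraries, with 0 where no peak was called. Points are libraries and bars the mean and SD, cut off at the lower edge of the axis. At Cdkn2b the tissues separate in all 3 panels, and H3K27me3 is absent from the 6 starts on the right.

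The Arf start (NM_009877.2, chr4 89294619, minus strand), 16.4 kb from Cdkn2b, carried all 3 marks in every library of both tissues. H3K4me3 lay between 27.8 and 40.2 RPM in the cortex (median 34.8) and between 32.7 and 48.8 RPM in the gastrocnemius (median 40.3), so that the tissues overlapped. The means of 34.8 ± 3.88 (SD, n = 9) and 41.2 ± 5.12 (SD, n = 10) gave a log2 fold change of 0.24 ± 0.09 (SE; edgeR FDR = 0.0261), but its direction turned to -0.05 when libraries were scaled by reads in autosomal peaks alone, and with all reads of the peak counted it was 0.10 (FDR = 0.115). H3K27ac was 5.48 ± 0.808 (SD, n = 9) in the cortex and 5.58 ± 1.09 (SD, n = 10) in the gastrocnemius, with a log2 fold change of 0.02 ± 0.12 (SE; edgeR FDR = 0.893). It passed the threshold as lower in the gastrocnemius with scaling by autosomal peak reads alone, at -0.26 (FDR = 0.0604), and with all reads of the peak counted, at -0.33 (FDR = 0.00384). H3K27me3 lay between 9.55 and 11.8 RPM in the cortex (median 11.1) and between 7.93 and 12.1 RPM in the gastrocnemius (median 9.10). Its log2 fold change of -0.16 ± 0.08 (SE) did not pass the threshold (edgeR FDR = 0.127), but passed it under several alternatives in the same direction. With a window of 2.5 kb it was -0.32 (FDR = 0.00414), with uncalled windows at 0 reads -0.24 (FDR = 0.0222) and with run number as a covariate -0.20 (FDR = 0.0682). With each animal as a block it was -0.23 (FDR = 0.0367), and without gastrocnemius 5 it was -0.23 (FDR = 0.0348), while the FDR was 0.0813 and 0.0942 without cortex 3 or 4. When all reads of the peaks that reach the start were counted it was -1.48 (FDR = 0.000672). These alternatives are not independent of each other. The block by animal, for instance, gives no weight to the gastrocnemius library whose animal has no cortex library. The start of the non-coding gene Gm12610 lies 561 bp from that of Arf and on the other strand, so peaks here belong to both.

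The Ink4a start (NM_001040654.1, chr4 89282192, minus strand), 12.4 kb from that of Arf, carried H3K27me3 in every library, at 11.1 to 13.6 RPM in the cortex (median 11.8) and 10.3 to 14.3 RPM in the gastrocnemius (median 12.0). The tissues overlapped over nearly the whole range, and the log2 fold change was -0.0035 ± 0.06 (SE; edgeR FDR = 0.983). When all reads of the peaks that reach the start were counted, which takes in the length of the block, it was -1.07 (FDR = 0.00797). These levels were above those of 95.0% of starts with H3K27me3 reads in the cortex and 98.3% in the gastrocnemius. No library of either tissue had an H3K27ac peak at Ink4a. An H3K4me3 peak was called in 3 of 9 cortex libraries, at no more than 2.82 RPM, and in 6 of 10 gastrocnemius libraries, at no more than 6.06 RPM (two-sided Fisher's exact test p = 0.370, FDR = 0.498). The starts of Cdkn2a and Cdkn2b thus ranked alike in both tissues for H3K27me3, with Ink4a highest, Arf next and Cdkn2b last. Ink4a was above Arf in 4 of 9 cortex libraries and tied with it (within 1e-06 RPM) in the other 5, where 1 peak whose reads were shared evenly covers both starts, and in the gastrocnemius it was above Arf in 7 of 10 libraries and tied in 1. Arf was above Cdkn2b in 5 of 9 cortex libraries, with 2 tied, and in 10 of 10 gastrocnemius libraries. For H3K4me3 in the cortex Arf was above Cdkn2b in 9 of 9 libraries without overlap, whereas in the gastrocnemius the mean of Cdkn2b, 48.5 RPM, was above that of Arf, 41.2 RPM.

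Peaks of H3K4me3 and H3K27me3 were found at the same start of the same animal at Arf in 9 of 9 cortexes and 10 of 10 gastrocnemius muscles, and at Cdkn2b in 9 of 9 and 4 of 10. At Ink4a they were found together in 3 of 9 and 6 of 10. Over all 27602 autosomal starts, 6.89% carried both marks in every cortex and 6.64% in every gastrocnemius, and 17.2% and 20.1% did so in at least 1 animal. Both marks in 1 animal may come from the same or from different cells or alleles, which these libraries do not resolve.

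The domain of Cdkn2a and Cdkn2b, taken as both genes and 20 kb on each side (chr4:89254473-89331032, 76.6 kb), was then compared as a whole. Scaled to the autosomal peak reads of each library but not by TMM, H3K27me3 in the domain lay between 233 and 322 RPM in the cortex (median 277) and between 146 and 247 RPM in the gastrocnemius (median 193). The means of 284 ± 31.1 (SD, n = 9) and 196 ± 28.4 (SD, n = 10) differed (two-sided exact permutation p = 3.25e-05 over 92378 relabellings, 6.50e-05 after adjustment over 6 domain tests), and the cortex was higher in 9 of 9 animals with both tissues. Scaled by TMM as well, the means were 273 ± 9.08 and 206 ± 52.4 RPM (SD; exact permutation p = 0.00209). The highest gastrocnemius library then stood at 314 RPM, above the highest cortex library at 289 RPM. H3K27me3 peaks covered 49.5 ± 2.53 kb of the domain in the cortex (SD, n = 9) and 39.7 ± 8.92 kb in the gastrocnemius (SD, n = 10; exact permutation p = 0.00611). Per covered kb the mark overlapped between the tissues, at 5.75 ± 0.665 RPM in the cortex and 5.14 ± 1.28 RPM in the gastrocnemius (SD). Over all autosomes, H3K27me3 peaks covered a median of 254 Mb in the cortex and 260 Mb in the gastrocnemius.

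**Figure D2:**
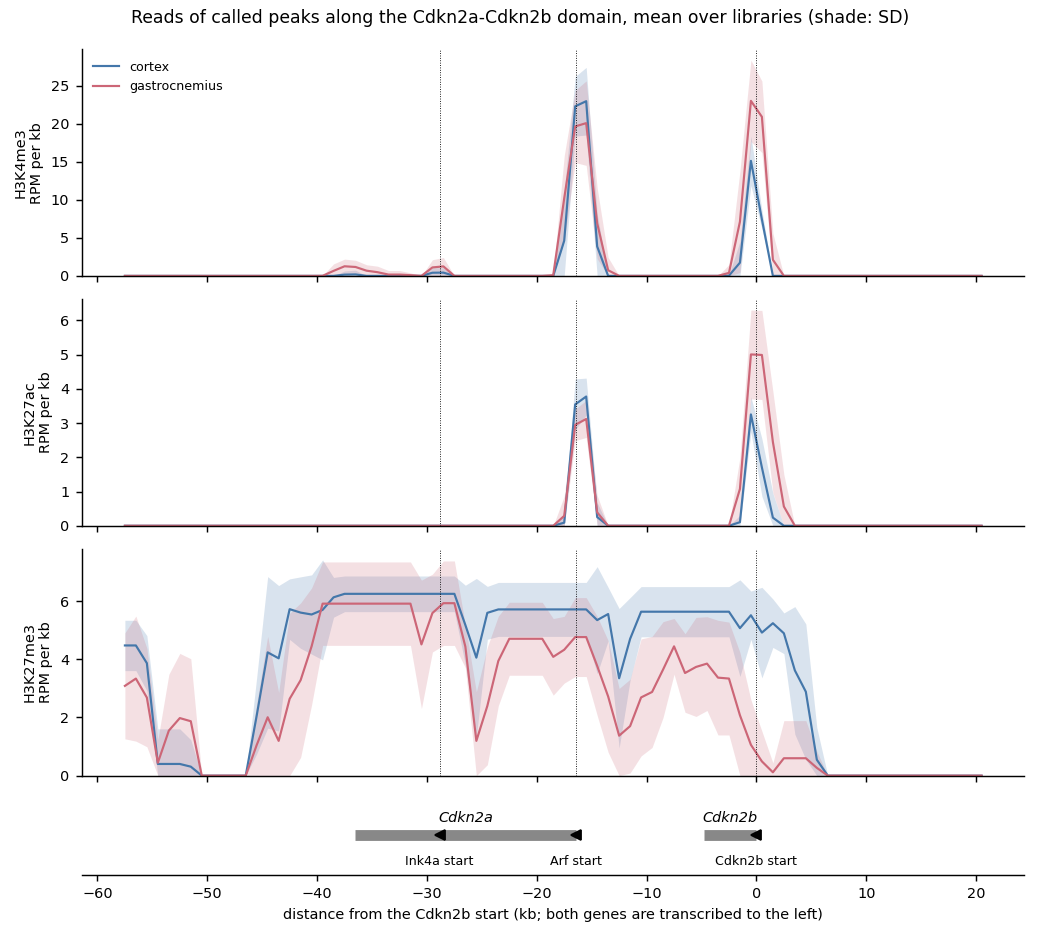
Mean reads of called peaks in 1 kb bins along the domain, in RPM per kb without TMM scaling (vertical axes, linear), against the distance from the Cdkn2b start in kb, with the SD over libraries as shade cut off at 0 (blue, 9 cortex; red, 10 gastrocnemius). H3K4me3 and H3K27ac stand as narrow peaks at Arf and Cdkn2b on a broad H3K27me3 block, which is lower in the gastrocnemius at its Cdkn2b end.

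H3K4me3 and H3K27ac in the domain went the other way. H3K4me3 lay between 68.1 and 84.5 RPM in the cortex (median 81.3) and between 98.2 and 130 RPM in the gastrocnemius (median 123), without overlap. The means were 79.4 ± 5.49 (SD, n = 9) and 118 ± 11.3 (SD, n = 10; two-sided exact permutation p = 2.17e-05, adjusted 6.50e-05). H3K27ac lay between 10.8 and 15.4 RPM in the cortex (median 12.4) and between 19.4 and 23.7 RPM in the gastrocnemius (median 20.4), again without overlap. Its means were 13.0 ± 1.55 (SD, n = 9) and 20.8 ± 1.40 (SD, n = 10; two-sided exact permutation p = 1.08e-05, the smallest these relabellings can give, adjusted 6.50e-05). Both marks were higher in the gastrocnemius in 9 of 9 animals. Scaled by TMM as well, the means were 71.0 and 132 RPM for H3K4me3 and 11.7 and 22.9 RPM for H3K27ac. H3K4me3 covered 4.6 ± 0.927 kb in the cortex and 8.94 ± 3.12 kb in the gastrocnemius (exact permutation p = 0.00103), and H3K27ac 3.31 ± 0.917 kb and 5.08 ± 0.990 kb (exact permutation p = 0.000834). Per covered kb, H3K4me3 was 17.8 ± 3.57 RPM and 14.7 ± 4.88 RPM, and H3K27ac 4.13 ± 1.08 RPM and 4.23 ± 0.819 RPM. H3K4me3 peaks also covered more of the autosomes in the gastrocnemius, with a median of 82.6 Mb against 57.7 Mb in the cortex, and for H3K27ac the medians were 340 Mb and 325 Mb. The domain values include the peaks at Arf and Cdkn2b, so they are not independent of the results at those starts. Counted whole and without TMM, mean H3K4me3 in cortex and gastrocnemius was 24.3 and 53.6 RPM at Cdkn2b and 53.8 and 57.8 RPM at Arf. Mean H3K27ac was 5.29 and 14.1 RPM at Cdkn2b and 7.66 and 6.74 RPM at Arf, where it was thus not higher in the gastrocnemius.

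The H3K27me3 block ran from below the Cdkn2a gene past the Arf start in all libraries, and reached the Cdkn2b gene in all of them except gastrocnemius 4, in 1 to 3 peaks in the cortex and 1 to 5 in the gastrocnemius. Its lower edge lay 2.27 to 9.07 kb below the end of Cdkn2a in the cortex and 3.67 to 9.07 kb in the gastrocnemius. The last peak on the genes ended beyond the Cdkn2b start in 9 of 9 cortex libraries, by 0.168 to 5.57 kb (median 4.57). In the gastrocnemius it did so in 2 of 10, with ends from 6.43 kb before to 0.768 kb beyond the start and a median of 1.43 kb before it. Gastrocnemius 5 and 9 had a further peak beyond the start, as had cortex 9, whose last peak on the genes ended nearest to the start. Gastrocnemius 4 and 7, the libraries that ended farthest from the start, had 527 and 705 reads in their peaks on the genes, and gastrocnemius 5 had 2654.

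**Figure D3:**
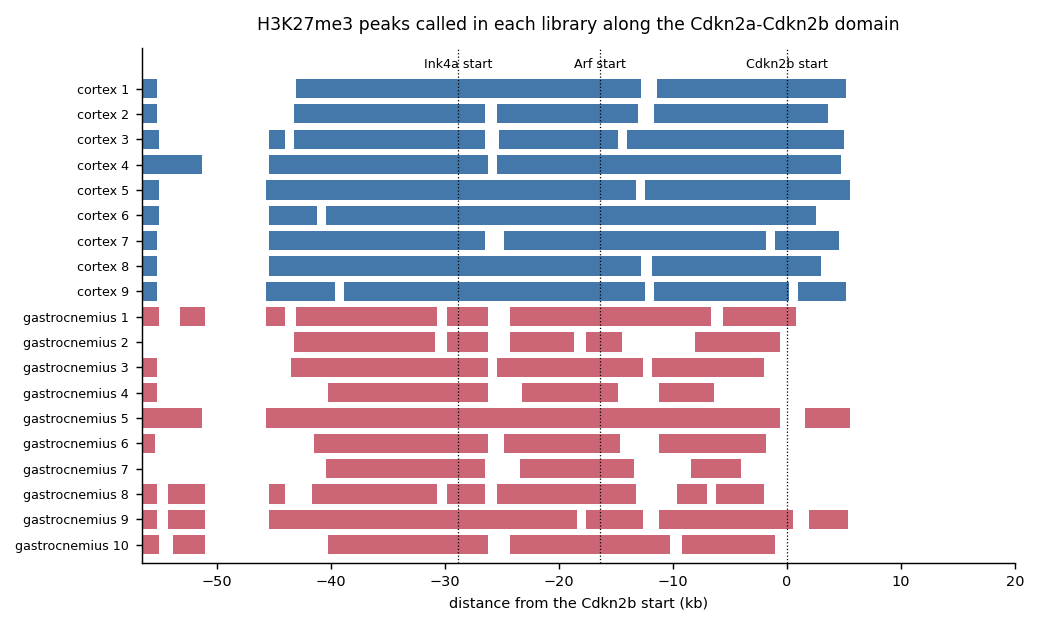
H3K27me3 peaks called in each library (rows, 9 cortex in blue and 10 gastrocnemius in red) along the domain, by distance from the Cdkn2b start in kb (horizontal axis, linear, with the 3 starts dotted). All 9 cortex libraries have a peak across the Cdkn2b start, against 2 of 10 gastrocnemius libraries, while every library is covered at Ink4a and Arf.

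Split at the annotated starts and ends, a division set once the peaks had been examined, the domain differed most in H3K27me3 at its Cdkn2b end. In the 20 kb above Cdkn2b, peaks covered 21.4 ± 5.13% in the cortex (SD, n = 9) and 4.37 ± 8.28% in the gastrocnemius (SD, n = 10; two-sided exact permutation p = 0.000346, 0.00208 after adjustment over 6 stretches). Over the Cdkn2b gene the values were 98.1 ± 5.62% and 64.2 ± 34.0% (exact permutation p = 0.00445, adjusted 0.0133). Between the genes they were 94.1 ± 4.86% and 75.4 ± 19.6% (exact permutation p = 0.0160, adjusted 0.0240), and between the Ink4a and Arf starts 95.9 ± 5.16% and 86.3 ± 8.63% (exact permutation p = 0.0122, adjusted 0.0240). From the Ink4a start to the end of Cdkn2a, 100% was covered in every cortex library and 96.6 ± 5.47% in the gastrocnemius (exact permutation p = 0.211, adjusted 0.253). Below Cdkn2a, 49.9 ± 9.25% and 44.2 ± 18.1% were covered (exact permutation p = 0.408). H3K4me3 over the Cdkn2b gene was 3.57 ± 0.461 RPM per kb in the cortex and 6.44 ± 0.839 RPM per kb in the gastrocnemius, and between the genes, where part of the Arf peak lies, 3.13 ± 0.553 and 3.10 ± 0.460 RPM per kb.

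Of the genes that flank the domain, Mtap lacked H3K27me3 and Dmrta1 carried it. Mtap, a gene of methionine salvage whose start lies 145 kb from that of Ink4a, had H3K4me3 at 57.7 ± 5.43 RPM in the cortex (SD, n = 9) and 56.5 ± 11.5 RPM in the gastrocnemius (SD, n = 10; log2 fold change -0.03, edgeR FDR = 0.828) and no H3K27me3 peak in any library. Dmrta1, whose start lies 377 kb on the other side, had H3K27me3 in every library, at 11.1 ± 1.40 RPM in the cortex and 9.24 ± 1.06 RPM in the gastrocnemius (log2 fold change -0.26 ± 0.08 SE, edgeR FDR = 0.0104). Its H3K4me3 was called in 9 of 9 cortex and 2 of 10 gastrocnemius libraries (two-sided Fisher's exact test p = 0.000714, FDR = 0.00190), the opposite direction to Cdkn2b.

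Of the other INK4 genes, Cdkn2c was higher in the gastrocnemius in both active marks and Cdkn2d passed the test in neither. Cdkn2c, which encodes the inhibitor Ink4c, has starts at chr4 109666756 (NM_001301368.1, upstream) and 109665372 (NM_007671.3, downstream) on the minus strand. They are 1384 bp apart and lie under the same peaks, so they are not independent. H3K4me3 at the upstream start lay between 41.5 and 50.05 RPM in the cortex (median 45.2) and between 41.5 and 77.3 RPM in the gastrocnemius (median 61.8). The gastrocnemius ran higher but its lowest library was within the cortex range, and the log2 fold change was 0.46 ± 0.10 (SE; edgeR FDR = 0.000505). H3K27ac at this start was 11.6 ± 1.32 (SD, n = 9) and 13.9 ± 2.46 (SD, n = 10), a log2 fold change of 0.26 ± 0.10 (SE; edgeR FDR = 0.0424). At the downstream start the log2 fold changes were 0.44 (FDR = 0.000850) and 0.30 (FDR = 0.0211). With scaling by autosomal peak reads alone they were 0.18 and -0.0050 upstream and 0.15 and 0.04 downstream, and none then passed the test, and without the libraries that carry a run number those of H3K27ac were 0.11 and 0.17 and did not pass it either. An H3K27me3 peak was called at the downstream start in 5 of 9 cortex and 0 of 10 gastrocnemius libraries (two-sided Fisher's exact test p = 0.0108, FDR = 0.0396), at up to 7.90 RPM, and at the upstream start in 4 of 9 and 0 of 10 (p = 0.0325 in the same exact test, FDR = 0.0944). With equally many top-scoring peaks per library the differences fell from 55.6 to 22.2 percentage points downstream (FDR = 0.373) and from 44.4 to 11.1 upstream (FDR = 0.634), and the upstream one was 22.2 points when a peak had to cover 500 bp of the window (FDR = 0.367) and 33.3 points without the lowest-scoring 25% of peaks (FDR = 0.199). Without the libraries that carry a run number the FDR was 0.189 downstream and 0.372 upstream. The FDR of the downstream start was 0.1002 to 0.102 without any of gastrocnemius 1, 2, 3, 6, 9 or 10 and that of the upstream start 0.176 to 0.220 without any of 14 libraries.

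Cdkn2d (NM_009878.3, chr9 21291209, minus strand), which encodes Ink4d, had H3K4me3 at 35.9 ± 2.62 RPM in the cortex (SD, n = 9) and 37.6 ± 3.15 RPM in the gastrocnemius (SD, n = 10; log2 fold change 0.07 ± 0.08 SE, edgeR FDR = 0.481). Its H3K27ac was 9.87 ± 1.72 and 10.6 ± 1.78 RPM (log2 fold change 0.11 ± 0.11 SE, edgeR FDR = 0.464). No library of either tissue had an H3K27me3 peak there. Both log2 fold changes turned negative, to -0.24 (FDR = 0.0225) and -0.15 (FDR = 0.405), with scaling by autosomal peak reads alone.

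Of the Cip/Kip genes, Cdkn1a encodes the p53 target p21 and Cdkn1b encodes p27. Cdkn1a has an upstream start (NM_001111099.2, chr17 29090979, plus strand) and a downstream start (NM_007669.5, chr17 29093769), 2790 bp apart. At the CG-poor upstream start, an H3K4me3 peak was called in 0 of 9 cortex libraries and in 5 of 10 gastrocnemius libraries, namely replicates 2, 3, 5, 7 and 9, at up to 25.8 RPM (two-sided Fisher's exact test p = 0.0325, FDR = 0.0588, where 55.2% of 4011 starts tested this way were called). Without any one of these 5 libraries the FDR was 0.141 to 0.143, and without the libraries that carry a run number it was 0.118. An H3K27ac peak was called there in 7 of 9 cortex libraries, at up to 7.68 RPM, and in 10 of 10 gastrocnemius libraries, at 4.97 to 10.1 RPM (Fisher's exact p = 0.211, FDR = 0.308), and without the lowest-scoring 25% of peaks its FDR was 0.0232. At the downstream start, every library carried both active marks. H3K4me3 lay between 30.1 and 51.1 RPM in the cortex (median 39.4) and between 27.5 and 48.3 RPM in the gastrocnemius (median 40.3), with a log2 fold change of 0.0042 ± 0.11 (SE; edgeR FDR = 0.978). With scaling by autosomal peak reads alone it was -0.30 (FDR = 0.0278), and with all reads of the peak counted it was 0.31 (FDR = 0.000181), so that each passed the threshold, in opposite directions. The H3K4me3 peak over this start was 3.11 ± 0.226 kb wide in the cortex and 5.92 ± 1.03 kb in the gastrocnemius (SD; two-sided exact permutation p = 2.17e-05). In the 5 libraries named, the same peak was the one called at the upstream start, whereas in gastrocnemius 6 a peak of 6.6 kb did not come within 1 kb of it. H3K27ac was 8.95 ± 2.03 RPM (SD, n = 9) and 8.54 ± 0.910 RPM (SD, n = 10; log2 fold change -0.07 ± 0.11 SE, edgeR FDR = 0.642), which was -0.33 (FDR = 0.0405) and 0.16 (FDR = 0.0613) under the same alternatives.

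At Cdkn1b (NM_009875.4, chr6 134920401, plus strand) the active marks went in opposite directions within 1 kb of the start, but not when all reads of their peaks were counted. H3K4me3 lay between 40.2 and 68.0 RPM in the cortex (median 55.3) and between 41.7 and 54.1 RPM in the gastrocnemius (median 46.0). The cortex ran higher with overlap, and the log2 fold change was -0.27 ± 0.10 (SE; edgeR FDR = 0.0209). The peak was 4.62 ± 1.12 kb wide in the cortex and 11.2 ± 3.48 kb in the gastrocnemius (SD; two-sided exact permutation p = 4.33e-05), and when all reads of the peak were counted the log2 fold change was 0.72 (edgeR FDR = 7.46e-06), in the other direction. With a window of 2.5 kb it was -0.13 and not past the threshold (edgeR FDR = 0.139). H3K27ac was 13.0 ± 2.58 RPM (SD, n = 9) in the cortex and 15.3 ± 1.70 RPM (SD, n = 10) in the gastrocnemius, a log2 fold change of 0.23 ± 0.11 (SE; edgeR FDR = 0.0756). This FDR was between 0.106 and 0.147 without any one of 10 libraries (cortex 1, 2, 4, 5, 8 or 9, gastrocnemius 5 to 8), it was 0.357 without the libraries that carry a run number, and the log2 fold change was -0.033 with scaling by autosomal peak reads alone. All reads of the H3K27ac peak, without TMM, came to 51.1 ± 4.24 RPM in the cortex and 90.0 ± 15.2 RPM in the gastrocnemius (SD). Counted in this way, both marks were higher in the gastrocnemius. The reads of a peak were shared evenly over its length, so a wider peak puts fewer of them into the window of 1 kb. In the cortex Cdkn1b had the highest mean of the 11 starts in both active marks, above 90.5% of starts with H3K4me3 reads and 92.4% of those with H3K27ac reads.

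Trp53 and Rb1, which encode p53 and the retinoblastoma protein, carried both active marks in every library and no H3K27me3 peak in any. H3K4me3 at Trp53 (NM_001127233.1, chr11 69580359, plus strand) was 43.1 ± 4.09 RPM in the cortex (SD, n = 9) and 48.4 ± 9.46 RPM in the gastrocnemius (SD, n = 10; log2 fold change 0.17 ± 0.10 SE, edgeR FDR = 0.178). Its H3K27ac was 8.90 ± 0.678 and 9.27 ± 1.19 RPM (log2 fold change 0.06 ± 0.08 SE, edgeR FDR = 0.566). Wrap53 starts 109 bp away on the other strand, so the peaks of both genes are the same. H3K4me3 at Rb1 (NM_009029.3, chr14 73325822, minus strand) was 42.0 ± 4.81 RPM (SD, n = 9) and 37.1 ± 7.32 RPM (SD, n = 10; log2 fold change -0.18 ± 0.11 SE, edgeR FDR = 0.173). H3K27ac at Rb1 lay between 6.15 and 9.27 RPM in the cortex (median 7.72) and between 7.34 and 15.8 RPM in the gastrocnemius (median 8.79), a log2 fold change of 0.27 ± 0.12 (SE; edgeR FDR = 0.0628). The FDR was 0.109 with each animal as a block, and 0.133, with a log2 fold change of 0.17, without gastrocnemius 8, the highest library. It was also 0.109 to 0.114 without cortex 3, 7 or 9. With scaling by autosomal peak reads alone, Trp53 changed sign (-0.14 for H3K4me3 and -0.21 for H3K27ac), and Rb1 was at -0.46 for H3K4me3 (FDR = 0.00459) and 0.04 for H3K27ac (FDR = 0.839). With all reads of the peaks counted, H3K27ac at Trp53 was -0.79 (FDR = 0.000264) and H3K4me3 at Rb1 0.19 (FDR = 0.000729), both past the threshold. For H3K4me3, Trp53 had an FDR of 0.0895 without gastrocnemius 4 and Rb1 one of 0.0642 without gastrocnemius 10 and of 0.0487 without the libraries that carry a run number.

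**Figure D4:**
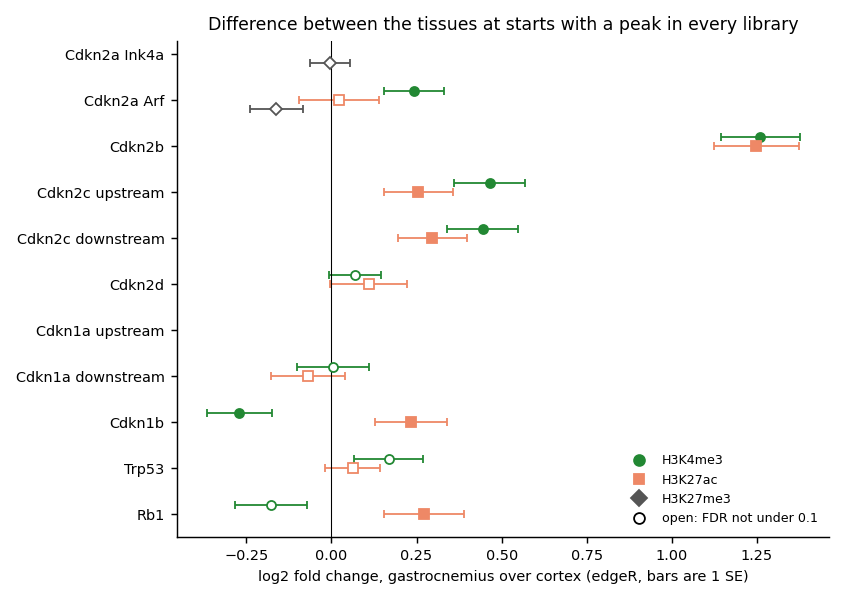
Log2 fold change of gastrocnemius over cortex with 1 SE (horizontal axis) at starts with a peak in every library of a mark (rows), for H3K4me3 (green circles), H3K27ac (orange squares) and H3K27me3 (grey diamonds). Filled symbols passed an FDR of 0.1 in edgeR, and those of Cdkn2b, at 1.26 and 1.25, lie apart from the others, which run from -0.27 to 0.46.

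Counted together, 9 of the 11 starts had an H3K4me3 peak in every library and could be tested by reads, and 5 of these passed an FDR of 0.1. This share is near the 54.4% of all 14592 starts tested (25.5% higher in the gastrocnemius and 28.9% higher in the cortex). Arf, Cdkn2b and both Cdkn2c starts were higher in the gastrocnemius and Cdkn1b was higher in the cortex. For H3K27ac 9 starts could be tested and 5 passed (Cdkn2b, both of Cdkn2c, Cdkn1b and Rb1, all higher in the gastrocnemius), against 50.7% of 14295 starts (24.3% higher in the gastrocnemius and 26.3% higher in the cortex). For H3K27me3 only Ink4a and Arf could be tested by reads and neither passed, against 49.3% of 2225 starts (22.5% higher in the gastrocnemius and 26.8% higher in the cortex). Of the starts tested by calls, 1 of 2 passed for H3K4me3 (the upstream Cdkn1a start, where 23.0% of all starts tested were called more often in the gastrocnemius and 32.2% in the cortex), 0 of 1 for H3K27ac (also the upstream Cdkn1a start, where 51.6% of all starts passed, 17.1% with more calls in the gastrocnemius and 34.5% with more in the cortex) and 3 of 3 for H3K27me3 (Cdkn2b and both of Cdkn2c, the latter under the same peaks, where 34.4% of all starts passed, 15.1% with more calls in the cortex). No H3K27me3 peak was called at the other 6 starts. The tissues did not overlap at Cdkn2b alone of the 9 starts in H3K4me3 and in H3K27ac, where 16.5% and 11.7% of all starts tested did not overlap, and neither Ink4a nor Arf was without overlap in H3K27me3, where 11.1% were. Of all starts tested by calls, 46.3% for H3K4me3, 39.5% for H3K27ac and 12.3% for H3K27me3 did not overlap, and of those of these genes Cdkn2b in H3K27me3 alone did not. With scaling by autosomal peak reads alone, the median log2 fold change of all starts fell to -0.33 for H3K4me3, -0.29 for H3K27ac and -0.11 for H3K27me3. Starts higher in the gastrocnemius and in the cortex then numbered 1803 and 8887, 1238 and 7192, and 134 and 348, in place of 3714 and 4222, 3478 and 3766, and 501 and 597. Cdkn2b remained higher in the gastrocnemius in that fit, with log2 fold changes of 0.96 for H3K4me3 and 0.998 for H3K27ac. A change toward the gastrocnemius smaller than these shifts, here or in the lists that follow, is no larger than the difference between the scalings.

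The width of the peak over each start was compared by exact permutation, a test added late, with the peaks already known. H3K4me3 peaks were wider in the gastrocnemius, with an unadjusted p below 0.05, at 8 of the 9 starts with a peak in every library (both Cdkn2c starts lie under the same peak), where 63.1% of all 14592 starts were wider in the gastrocnemius by this test, 10.3% wider in the cortex and 73.5% either. At Rb1 they were 3.18 ± 0.552 and 5.22 ± 1.41 kb (SD; two-sided exact permutation p = 0.000455), at both Cdkn2c starts 4.02 ± 0.353 and 7.08 ± 3.16 kb (exact p = 0.000444), and at Cdkn2d 5.49 ± 1.18 and 6.90 ± 0.855 kb (exact p = 0.00226). They were 1.69 ± 0.511 and 2.46 ± 0.674 kb at Cdkn2b (exact p = 0.0130) and 2.38 ± 0.429 and 3.04 ± 0.810 kb at Arf (exact p = 0.0453), and at Trp53 they were 7.60 ± 0.894 and 8.24 ± 1.83 kb (exact p = 0.358). Without regard to the test, 82.4% of all starts had the wider mean H3K4me3 peak in the gastrocnemius, with a median difference of 1.01 kb, so the direction is that of most starts. H3K27ac peaks were 1.44 ± 0.646 and 2.96 ± 0.741 kb at Cdkn2b (exact p = 0.000238), 4.07 ± 0.625 and 11.2 ± 4.45 kb at Cdkn2c (exact p = 0.000152), and 5.73 ± 0.632 and 8.32 ± 2.81 kb at Rb1 (exact p = 0.0168). They were also wider at Cdkn1a downstream (exact p = 0.000108) and Cdkn1b (exact p = 0.000779), which makes 6 of 9 starts with an unadjusted p below 0.05, while Arf (exact p = 0.165) and Cdkn2d (exact p = 0.590) were above it. Of all 14295 starts, 52.6% were wider in the gastrocnemius by this test, 9.7% wider in the cortex and 62.3% either, and 78.5% had the wider mean in the gastrocnemius. At Trp53 the H3K27ac peak, which reaches over many neighbouring genes, was 39.4 ± 10.02 kb in the cortex and 29.5 ± 9.36 kb in the gastrocnemius (exact p = 0.0401), the opposite direction. Because the reads of a peak were shared evenly over its length, a wider peak puts fewer of them into the same window.

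**Figure D5:**
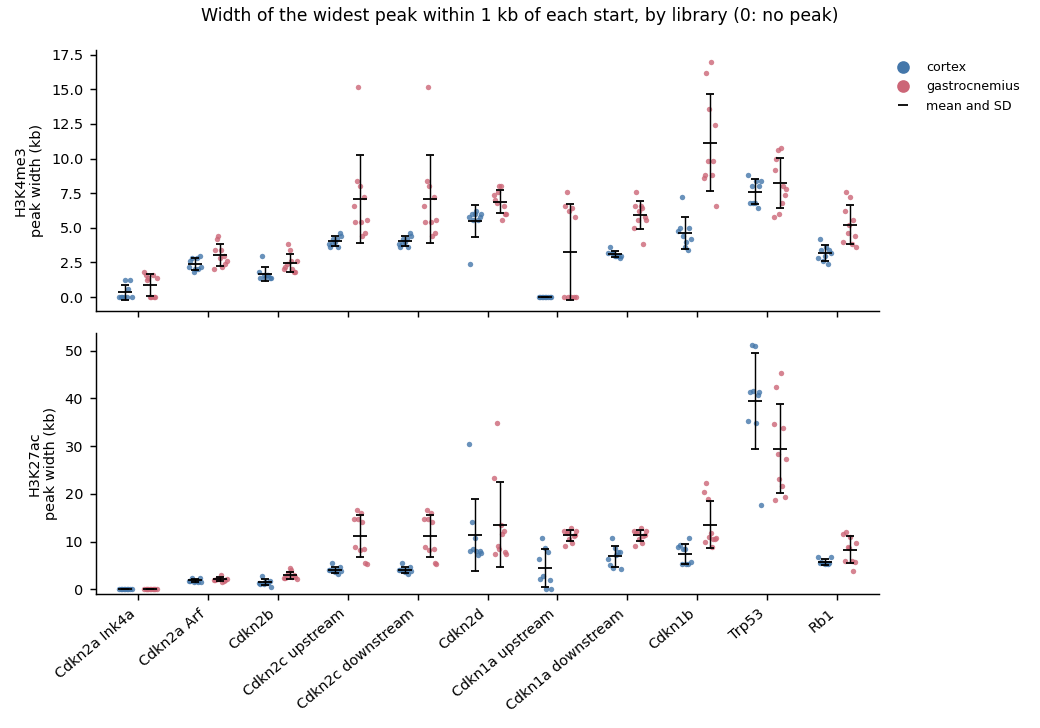
Width in kb (vertical axes, linear) of the widest H3K4me3 (upper panel) and H3K27ac (lower panel) peak within 1 kb of each start in 9 cortex (blue) and 10 gastrocnemius (red) libraries, with mean and SD and 0 where no peak was called. Gastrocnemius peaks are wider at most starts, from 4.62 to 11.2 kb on average for H3K4me3 at Cdkn1b, and H3K27ac at Trp53 is wider in the cortex.

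The other genes of these pathways were described by 4 lists. Of the G1/S partners (21 genes of cyclins, CDKs, E2F factors and their partners, pocket proteins and the CDK inhibitor gene Cdkn1c, with 25 starts), 25 starts could be tested by H3K4me3 reads, and 7 were higher in the gastrocnemius and 9 in the cortex, where 54.4% of all starts tested were called (median log2 fold change -0.14, against -0.03 for all starts). For H3K27ac 8 were higher in each tissue of 23 tested, where 50.7% of all starts were called (median -0.0017, against -0.02). Cdkn1c, the third Cip/Kip inhibitor, had the largest change, with H3K4me3 at 9.86 ± 1.70 RPM in the cortex and 25.6 ± 4.94 RPM in the gastrocnemius (log2 fold change 1.37 ± 0.12 SE, edgeR FDR = 1.14e-10). Its H3K27ac was higher by 0.66 (edgeR FDR = 0.000667) and its H3K27me3 was called in 9 of 9 cortex and 0 of 10 gastrocnemius libraries (Fisher's exact test, FDR = 0.000174), so it differed in the same directions as Cdkn2b in all 3 marks. For H3K4me3 the D-type cyclins Ccnd3 (at the start of NM_001081635.1) and Ccnd1 were higher in the gastrocnemius, by 0.87 (FDR = 6.13e-06) and 0.77 (FDR = 2.53e-07). For H3K27ac E2f1 and Ccne1, which act at entry into S phase, were lower in the gastrocnemius, at -0.56 (FDR = 0.000711) and -0.47 (FDR = 0.00665). These genes are named for the size of their change, and a pattern among cyclins and E2F factors was not tested. For H3K27me3 1 of 3 starts tested by reads passed (49.3% of all starts), that of E2f8 (log2 fold change 0.35, FDR = 0.0739), and 4 of 10 tested by calls (34.4% of all starts), among them E2f2 (9 of 9 cortex and 3 of 10 gastrocnemius libraries, FDR = 0.0143) and Ccne1 (0 of 9 and 5 of 10, FDR = 0.0944).

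In the p53 pathway list (16 genes, 20 starts), 3 starts were higher in the gastrocnemius and 2 in the cortex of 16 tested by H3K4me3 reads, where 54.4% of all starts were called, 25.5% and 28.9% by direction (median -0.02, against -0.03 for all starts). Trp73, a relative of p53, was higher by 0.83 (edgeR FDR = 2.20e-07) and the growth arrest gene Gadd45a by 0.57 (FDR = 3.87e-06), and the apoptosis gene Pmaip1 was lower, at -0.32 (FDR = 0.0360). For H3K27ac 1 was higher in the gastrocnemius and 2 in the cortex of 14 tested, where 50.7% of all starts were called, with Gadd45a higher by 0.28 (FDR = 0.0481) and Mdm2, the ubiquitin ligase of p53, and Sesn1 lower, at -0.50 (FDR = 0.00537) and -0.34 (FDR = 0.000670). Trp63, another relative of p53 and a gene of epithelial cells, had an H3K4me3 peak in 0 of 9 cortex and 10 of 10 gastrocnemius libraries (Fisher's exact test, FDR = 4.34e-05), and an H3K27ac peak there in 0 of 9 and 10 of 10 (FDR = 5.53e-05) and at its other start in 0 of 9 and 9 of 10 (FDR = 0.000432). Mdm4, a partner of Mdm2, had an H3K27ac peak at the start of NM_001302802.1 in 1 of 9 and 7 of 10 (FDR = 0.0431). None of the 3 starts tested by H3K27me3 reads passed (49.3% of all starts did) and 1 of 2 tested by calls did (34.4% of all starts), the other Trp63 start, in 4 of 9 cortex and 0 of 10 gastrocnemius libraries (FDR = 0.0944).

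The list of secreted senescence factors held 13 genes, of which Timp1 lies on X and was left out. Of its 13 autosomal starts, 8 had an H3K4me3 peak in at least 1 library and 5 could be tested by reads, of which 4 were higher in the gastrocnemius and 1 in the cortex, where 25.5% and 28.9% of all starts were (median log2 fold change 0.68, against -0.03). For H3K27ac 6 could be tested, of which 4 were higher in the gastrocnemius and 2 in the cortex, where 24.3% and 26.3% of all starts were (median 0.40, against -0.02). Tgfb1 was higher by 1.04 for H3K4me3 (FDR = 1.31e-09), and the chemokine gene Cxcl1 by 0.68 for H3K4me3 (FDR = 6.79e-05) and 0.84 for H3K27ac (FDR = 8.43e-07), whereas Igfbp3 was lower for H3K27ac, at -0.46 (FDR = 0.00109). The interleukin gene Il6 had an H3K27ac peak in 0 of 9 cortex and 8 of 10 gastrocnemius libraries (Fisher's exact test, FDR = 0.00219), and Il1a an H3K4me3 peak in 4 of 9 and 0 of 10 (FDR = 0.0588) and an H3K27ac peak in 4 of 9 and 0 of 10 (FDR = 0.0630). Gdf15, a stress-induced cytokine, had an H3K4me3 peak in 3 of 9 and 10 of 10 (FDR = 0.00723). Of the 10 starts tested by H3K27me3 calls 1 passed, where 34.4% of all starts did, that of Il1a, in 0 of 9 cortex and 5 of 10 gastrocnemius libraries (FDR = 0.0944).

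Of the Polycomb regulators of the locus (9 genes, 10 starts), 2 starts were higher in each tissue for H3K4me3 (median -0.05) and 3 in each for H3K27ac (median -0.11), of 10 tested, where 54.4% and 50.7% of all starts were called. Kdm6b, a demethylase of H3K27me3, was higher in the gastrocnemius for H3K4me3 by 0.49 (edgeR FDR = 2.02e-05). The Polycomb subunits Cbx8 and Cbx7, both known to repress this locus, differed in H3K27ac in opposite directions, at -0.48 (FDR = 2.20e-05) and 0.28 (FDR = 0.00988). Of Kdm2b, a demethylase that recruits Polycomb to CG-rich DNA, H3K4me3 was lower at one start, at -0.28 (FDR = 0.0481), and higher at another, at 0.22 (FDR = 0.0550), where H3K27ac was lower, at -0.44 (FDR = 0.00126).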

How the data were processed

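ChIP-seq of H3K4me3 (Active Motif), H3K27ac (Abcam) and H3K27me3 (Millipore) was analysed from the peaks of each library. Per the study's methods, the authors aligned paired-end reads to mm10 with BWA, removed low-quality and duplicate reads with SAMtools, kept chromosomes 1 to 19 and X, and called peaks per library with epic2 (windows of 200 bp). The deposited count of a peak is the whole number of reads in it, not normalized. The score deposited by the authors with each peak is the epic2 score and served only to rank peaks. A library without a peak may still hold reads there.

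RefSeq starts of GRCm38.p6 (27602 on autosomes) were used. The reads of a peak were shared evenly over its length and summed within 1 kb of a start. Starts with a peak in every library of a mark were tested with edgeR 4.0.16 (quasi-likelihood, TMM, R 4.3.3) and the others by two-sided Fisher's exact test on calls, at a Benjamini-Hochberg FDR below 0.1 over all autosomal starts tested. Domain values were compared by two-sided exact permutation over 92378 relabellings (SciPy 1.17.1). Each library of a mark and tissue comes from a different mouse. A gene of the list of secreted senescence factors enters the counts of that list and is not reported here by name. The code was tested on simulated data.

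Members, lists and tests were chosen with earlier results of these data known. All starts of the 8 genes are named, and of each list and mark at most 3 called starts with the largest changes. Alternatives were other windows, scalings, filters and counting rules, DESeq2 1.42.0, run number, animal as a block, and leaving out each library. The common biological coefficient of variation was 17.0% for H3K4me3, 16.6% for H3K27ac and 6.13% for H3K27me3. Tags in the deposited names show which libraries of the tissues came from the same animal (9 animals). Deviations from the tissue means correlated between these libraries at -0.10 to 0.05 for H3K4me3, -0.03 to 0.06 for H3K27ac and -0.06 to 0.07 for H3K27me3.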

Additional observations from a re-analysis of the deposited data

Results flagged for a closer look

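In 42 groups of libraries (a start, mark and tissue with a peak in every library), 4 libraries (9.52% of the groups) lay farther from the others than the 95% limit of Dixon's test allows, where chance alone would mark about 5% of groups. In 12 groups of domain values none did. H3K4me3 at Cdkn2d was highest in cortex 2, at 41.9 RPM against 33.3 to 37.0 in the others, and in gastrocnemius 3, at 45.6 RPM against 32.9 to 38.02. H3K27ac at the downstream Cdkn2c start was highest in cortex 5, at 14.1 RPM against 9.50 to 11.8. H3K27ac at Rb1 was highest in gastrocnemius 8, at 15.8 RPM against 7.34 to 10.7, and the difference at Rb1 did not pass the threshold without that library.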

How the results depend on the processing

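All 153 alternative values of the domain (reads and covered length of the 3 marks) kept their direction and stayed below p = 0.05. H3K4me3 and H3K27ac at Cdkn2b kept their direction and their side of the threshold in every alternative that gave a value, and at H3K27ac leaving out the lowest-scoring 25% of peaks and a minimum of 20 reads gave none, because cortex 9 then had no value. Of 644 alternative values of reads at the starts of these genes, 549 kept direction and call, 27 lost the call, 17 gained it and 51 changed sign. Of 144 values of calls, 106 kept the call, 36 lost it and 2 gained it. Of 173 alternative counts over all starts, 170 were within 1.5 times, and 3 were not. With uncalled windows taken as 0 reads, 11587 starts were called for H3K27ac and 4907 for H3K27me3, and with scaling by autosomal peak reads alone 482 for H3K27me3. The number of starts called was 7919, 6880 and 1026 for H3K4me3, H3K27ac and H3K27me3 with a replicate block by label number, which pairs the same animal only for numbers 1 to 4, and 7807, 6878 and 1019 with a replicate block by animal, which changed no call at these starts beyond those given above. With the block by label number, H3K27ac at the upstream Cdkn2c start lost its call (0.19, FDR = 0.114) and H3K4me3 at Rb1 gained one (-0.24, FDR = 0.0290). DESeq2 called 7922, 7241 and 970.

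Log2 fold changes that changed sign were, with a window of 2.5 kb, -0.023 (Trp53), 0.11 (Rb1) and -0.080 (Cdkn2d) for H3K4me3, and -0.049 (Trp53), 0.027 (Cdkn1a downstream) and -0.0028 (Arf) for H3K27ac. With the whole count of the peak they were -0.057 (Trp53), 0.19 (Rb1) and 0.72 (Cdkn1b) for H3K4me3, and -0.79 (Trp53), 0.16 (Cdkn1a downstream), -0.33 (Arf) and -0.22 (Cdkn2d) for H3K27ac. With autosomal peak reads alone they were -0.14 (Trp53), -0.30 (Cdkn1a downstream), -0.047 (Arf) and -0.24 (Cdkn2d) for H3K4me3, and -0.21 (Trp53), -0.26 (Arf), -0.0050 (Cdkn2c upstream), -0.033 (Cdkn1b) and -0.15 (Cdkn2d) for H3K27ac. H3K4me3 at the downstream Cdkn1a start, near 0, was -0.033 without libraries with a run number, -0.0086 with uncalled windows at 0, -0.030 and -0.018 with the replicate block by label number and by animal, and -0.0084 with run number as a covariate. H3K27me3 at Ink4a, also near 0, was 0.026 without the lowest-scoring 25% of peaks, 0.0072 with DESeq2 size factors, 0.0055 with DESeq2 and 0.031 with at least 20 reads. With each library left out in turn, the signs changed at Cdkn1a downstream (H3K4me3 -0.039 to 0.057, H3K27ac -0.12 to 0.024), Arf (H3K27ac -0.032 to 0.073) and Ink4a (H3K27me3 -0.039 to 0.024). The cause of these changes was not tested. The values at a start rest on few reads in some libraries, with 31 to 118 per library for H3K27me3 at Arf and 16 for H3K27ac at Cdkn2b in cortex 9. Counted within 1 kb, the H3K27me3 call at the upstream Cdkn2c start rests on 1.05 reads in cortex 6 and 5.90 in cortex 9. That at Cdkn2b in gastrocnemius 2 rests on 7.43 reads.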

Other observations

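Between the domain and Dmrta1, H3K27ac peaks of all libraries were merged into sites. Only the 3 sites with a peak in at least 3 libraries of a tissue were kept, and they are given here as a description. The nearest, at chr4:89468601-89471600 within Gm12610 and 159 kb above the Cdkn2b start, had an H3K27ac peak in 0 of 9 cortex and 9 of 10 gastrocnemius libraries and an H3K4me3 peak in 0 of 9 and 3 of 10. The next, at chr4:89485001-89487600 and 175 kb above the start, had H3K27ac in 0 of 9 and 5 of 10. The farthest, at chr4:89523201-89525400 and 213 kb above the start, overlaps no annotated gene and had H3K4me3 and H3K27me3 in 9 of 9 and 10 of 10 and H3K27ac in 7 of 9 and 10 of 10 libraries.

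Over the 6 group means (3 marks in 2 tissues, log2 of RPM plus 1), the starts most like Cdkn2b, leaving out those within 100 kb, were those of Pitx3, Ephb4 and D930003E18Rik, at distances of 0.54, 0.76 and 0.77. Pitx3 had H3K4me3 at 16.1 RPM in the cortex and 42.8 RPM in the gastrocnemius, H3K27ac at 4.87 and 8.44 RPM and H3K27me3 at 10.7 and 1.41 RPM. The starts most like Arf were those of Kank1, Dmrt1i and Baiap2l1, at 0.51, 0.55 and 0.57, and those most like Ink4a were those of Foxe1, Gm12446 and Gm33167, at 0.21, 0.28 and 0.43.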
